A study of Mus musculus with 42 samples.

Results

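A set of 9 genes of the complement system was followed through bulk RNA-seq of the mouse colon: C3, Cfb, C2, C4b, Cfi, Cd55, C1s1, C1ra and Serping1. They were taken by name from 19227 gene symbols that have a row in at least 1 of 12 deposited tables. C3, Cfb, C2 and Cd55 have a row in all 12 tables, C1ra in 11, C4b in 7, Serping1 in 6, C1s1 in 4 and Cfi in 2. A table lists no row for a gene of very low count, so a missing row is not a measured 0.

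Complement is a set of plasma and tissue proteins that cut one another in sequence. C1r and C1s are the proteases of the C1 complex, C2 and C4 build the C3-cutting enzyme of the classical pathway, and factor B builds that of the alternative pathway. Both enzymes cut C3, the shared central component, whose fragments coat surfaces and recruit phagocytes. C1 inhibitor (the product of Serping1), factor I (Cfi) and the membrane protein CD55, also called decay-accelerating factor, hold the cascade back. The liver makes most plasma complement, while fibroblasts and epithelial cells make some of it locally.

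The 42 libraries came from 3 sources. Gli1-tdTomato cells are stromal cells sorted from mice in which the Gli1 promoter drives the tamoxifen-inducible recombinase CreERT2. The recombinase switches on a Rosa26-Loxp-STOP-Loxp-tdTomato reporter. These mice had neither signalling gene floxed (GWTT), Smad4 fl/fl (GS4T) or Alk3 fl/fl (GA3T). Alk3 is the BMP receptor gene Bmpr1a, and Smad4 carries the signal of BMP and TGF-β receptors. Muc2-mCherry cells are goblet cells sorted from the matching lines (GWTM2, GS4M2, GA3M2), in which the deletion lies in the Gli1+ stroma and not in the sorted cell. All sorted groups, controls included, carried Gli1-CreERT2, were 2 to 4 months old, male or female, received 100 µl of 20 mg/ml tamoxifen daily for 5 days and were taken at day 30. Each of the 12 sorted groups (3 genotypes, 2 reporters, proximal or distal colon) has 2 libraries. The third source was wild-type colonic organoids, epithelium grown without stroma, left untreated or given 10 nM IL-1α and IL-1β (IL-1 below) or 10 nM IL-17A for 12 or 72 hours, with 3 libraries per group. Whether each library is 1 mouse or 1 culture is not labelled, so the p-values measure only the spread between libraries, which may be technical.

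Libraries held 14222902 to 23686940 reads on named genes. The organoid controls labelled 12 h replicate 2 and 72 h replicate 1 hold the same reads, as do 12 h replicate 4 and 72 h replicate 4, so the 2 times share 2 of their 3 controls. Replicates 3 and 4 of each cytokine at 12 h, and control replicates 2 and 4 at 72 h, are nearly alike but differ by more than sampling noise. By sex-linked genes, the 3 IL-17A libraries at 72 h are male while 2 of the 3 controls are female. In the stroma, Gli1 itself was at 23.9 normalized counts in GS4T proximal replicate 2 and at 34.7 in GA3T proximal replicate 2, against 642 to 1680 in the proximal controls, so proximal Cfb and Cd55 are also given without them, and C3, C4b, Serping1 and the further complement genes without the GS4T one.

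Marker genes were read against the labelled sources. The labels give intestinal epithelium as the tissue of the Gli1-tdTomato cells too, but their libraries were led by fibroblast genes. The 9 fibroblast markers summed to 44959 to 62905 CPM (reads on a gene, scaled so that all libraries have the same total) in Gli1-tdTomato libraries and to at most 29.8 in Muc2-mCherry libraries, where no more than 6 of them had a row. The 7 goblet markers summed to 8878 to 61172 CPM in Muc2-mCherry libraries. Smad4 stood at 1604 and 1673 normalized counts in proximal GWTT and at 705 and 835 in GS4T. Bmpr1a stood at 2960 and 3220 in proximal GWTT and at 2233 and 1842 in GA3T. Both deleted genes were lower in the sorted stroma that carries the deletion, and reads from them were still present. Bmpr1a was also lower in the goblet cells of both lines, at 1572 and 1336 in proximal GA3M2 against 1966 and 2131 in GWTM2, and at 1468 and 1586 in proximal GS4M2 against 1846 and 2015, with no overlap in the distal colon either. In bulk RNA, fewer cells of a type and less RNA per cell cannot be told apart.

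C3 had the largest fold change with cytokine, and Cd55 was called higher in cytokine-treated epithelium and lower in Smad4-deficient distal stroma, so the 200 bases before their RefSeq transcription starts are shown (GRCm38.p6). RefSeq promoter entries were found for 4 of the 9 members. Both genes lie on the minus strand, C3 in chr17:57203970-57228136 and Cd55 in chr1:130439027-130462744 by GENCODE. The C3 window is chr17:57228137-57228336 and the Cd55 window is chr1:130462745-130462944, and each is printed 5′ to 3′ on the gene's strand. Capitals mark matches to TTNNGNAA, a C/EBP-type motif, in C3, and to an NF-κB-type motif in Cd55.
C3: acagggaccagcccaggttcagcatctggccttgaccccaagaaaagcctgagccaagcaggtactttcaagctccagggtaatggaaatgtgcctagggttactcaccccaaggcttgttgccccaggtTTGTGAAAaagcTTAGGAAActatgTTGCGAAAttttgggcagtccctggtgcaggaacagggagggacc
Cd55: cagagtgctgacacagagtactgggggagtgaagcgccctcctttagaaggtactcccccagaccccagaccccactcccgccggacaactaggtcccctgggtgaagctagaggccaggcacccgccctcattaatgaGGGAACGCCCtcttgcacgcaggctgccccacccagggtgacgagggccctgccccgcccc
The C3 window holds 3 matches to TTNNGNAA, which begin 70, 58 and 45 bases before the start, the last of them on both strands. At least 1 such match occurs in 30.0% of the 32851 promoter windows of this length, and at least 3 in 1.41%. The Cd55 window holds 1 match to the NF-κB-type motif on the minus strand of the printed sequence, 61 bases before the start, and 1.25% of windows hold one on either strand. A second form of that motif, searched on both strands, occurs in 1.18% of windows and in neither of these. Of the members not shown, C1ra holds 2 matches to TTNNGNAA and C1s1 holds 1 in each of its 2 entries, although limma called C1ra with neither cytokine and C1s1 has no organoid row. A match is a run of letters and not a measured binding site.

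The first comparison was between the cell sources in control mice. Between these 2 sorted sources, the stroma held nearly all the messages of C3, C4b, C1ra and Serping1. By mean CPM, Cd55 was 19.5-fold and C2 8.39-fold higher in the stroma, and C1s1 and Cfi had rows in the stroma only. Cfb stood at similar levels in stroma and goblet cells. Per kilobase of exon, C3 stood at 1066 ± 337 CPM per kb (SD, n = 4) in GWTT and Serping1 at 896 ± 164. C1s1 followed at 379 ± 18.9, C4b at 342 ± 74.1 and C1ra at 221 ± 16.8. The libraries of C3 and Serping1 overlapped, as did those of C1s1 and C4b. Further down came Cd55 at 83.9 ± 21.4, Cfb at 41.8 ± 11.9 and C2 at 5.35 ± 1.25 CPM per kb. Cfi was listed only in the distal colon, at 0.134 ± 0.114 CPM per kb (n = 2), from very few reads per library.

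In goblet cells the order was different on the same scale. Cfb led at 37.3 ± 5.53 CPM per kb (SD, n = 4), ahead of Cd55 at 4.29 ± 1.05. C3 stood at 0.879 ± 0.914, C2 at 0.637 ± 0.547 and C1ra at 0.358 ± 0.292, and their libraries overlapped. Cfi and C1s1 have no row in any goblet or organoid table. Untreated organoids, counting each of the 4 distinct control libraries once, resembled goblet cells in this order, with Cfb at 23.8 ± 4.41, Cd55 at 8.68 ± 1.66 and C3 at 2.13 ± 0.799 CPM per kb.

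**Figure D1:**
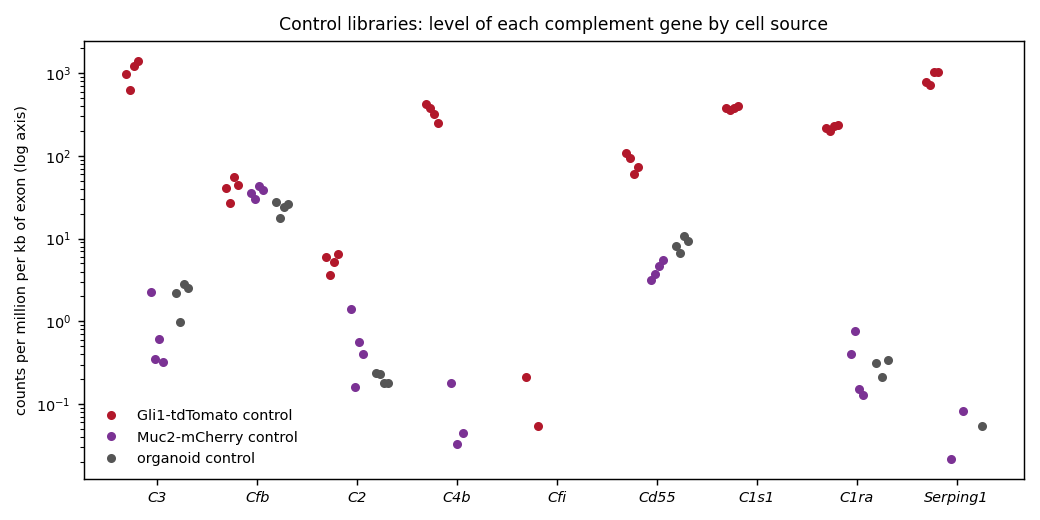
Level of each complement gene in control libraries, as CPM per kb of exon on a log axis, with 1 point per library for Gli1-tdTomato cells, Muc2-mCherry cells and untreated organoids. C3, C2, C4b, Cd55, C1ra and Serping1 stand higher in every stromal library than in any epithelial one, Cfb lies at similar heights in all 3 sources, C1s1 is listed in stroma only, Cfi is listed in 2 stromal libraries only, and values of 0 are not drawn.

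Between the 4 GWTT and 4 GWTM2 libraries, 5 of the 6 members tested were higher in the stroma, where 44.2% of 12953 genes differed in either direction (limma, Benjamini-Hochberg adjusted p under 0.05 and at least a doubling or halving, the rule used throughout). C3 averaged 5481 CPM in stroma and 4.52 in goblet cells, a log2 difference of 10.85 ± 0.61 (SE, adjusted p = 2.43e-06). C4b averaged 1948 against 0.365 CPM (log2 difference 12.99 ± 0.62, adjusted p = 1.21e-06), and C1ra 658 against 1.07 CPM (9.72 ± 0.42, adjusted p = 7.67e-07). The goblet libraries held 0 to 18 reads of C4b and 6 to 36 of C1ra, so the sizes of these differences depend on the pseudocount of 1. C4b passed the filter for testing through its stromal counts. Cd55 differed by 4.49 ± 0.23 and C2 by 3.60 ± 0.58 on the log2 scale (limma, adjusted p = 1.68e-06 and 0.000769). Cfb, at 118 ± 33.6 CPM in stroma and 105 ± 15.6 in goblet cells (SD, n = 4), did not pass the test (log2 difference 0.34 ± 0.16, adjusted p = 0.0794). Serping1 was at 2083 CPM in stroma and at 0.0504 and 0.189 CPM in the 2 goblet libraries that list it. In proximal against distal controls, limma called no member of 8 tested in stroma, beside 1.32% of 15186 genes, and none of 4 tested in goblet cells, beside 1.46% of 12943 genes, and none had an unadjusted p under 0.05 with that fold (0 and 0).

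The organoids answer how epithelium alone responds to cytokines. C3 had the largest fold changes, and it was the only member that limma called at 12 h, with IL-1. At 12 h, C3 stood at 183, 81.4 and 223 normalized counts in the controls and at 2671, 1985 and 1725 with IL-1. Every IL-1 library was above every control, and the log2 fold change was 3.80 ± 0.38 (SE, limma adjusted p = 0.0418). C3 was the only member of 5 tested that passed, beside 0.0542% of 12913 genes. That call narrowly passed: leaving out any 1 library raised the adjusted p to between 0.0503 and 0.484, averaging the nearly alike IL-1 replicates 3 and 4 raised it to 0.366, and the fold change stayed between 3.37 and 4.09. Within males the difference was 4.44 (1 IL-1 library, 2 controls) and within females 3.05 (2 and 1).

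With IL-17A at 12 h C3 was nearer to the controls. Its values were 375, 425 and 510 normalized counts against 192, 85.3 and 233 in the same controls as scaled in that table, and the groups did not overlap. The log2 fold change of 1.46 ± 0.37 did not pass the test (limma, adjusted p = 0.760), and neither did the other 3 members tested, beside 0.0385% of 12977 genes called. With the replicate number as a block, over only 2 shared numbers, limma called C3 (1.04, adjusted p = 4.81e-14). Cd55 groups did not overlap either, at means of 1024 with IL-17A and 683 in controls (0.59 ± 0.19, limma adjusted p = 0.864). C3 was the 1 member that had an unadjusted p under 0.05 together with a doubling, DESeq2 called it at an adjusted p of 0.0351, and edgeR called none of the members. Between the 2 cytokines at 12 h, C3 was 2.34 ± 0.35 higher with IL-1 on the log2 scale, with every IL-1 library above every IL-17A library, but limma (adjusted p = 0.431) and edgeR called no gene of 12931 (0%), while 35 had an unadjusted p under 0.05 at this fold. DESeq2 called C3 there at an adjusted p of 1.68e-08. With the replicate number as a block over the 3 numbers that both cytokine groups carry, limma called C3 (2.34, adjusted p = 1.12e-17) among 38 genes, though replicates 3 and 4 are nearly alike within each cytokine.

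At 72 h limma called 4 members higher under each cytokine, and the change between the times is tested below. C3, the central component, stood at 77.2, 197 and 214 normalized counts in the controls and at 3130, 4698 and 4036 with IL-1, a log2 fold change of 4.71 ± 0.38 (limma adjusted p = 0.00198). Cfb, which forms the alternative-pathway C3 convertase, went from 750, 1110 and 1005 to 2567, 2042 and 1876 (1.18 ± 0.20, limma adjusted p = 0.00464). C2, its classical-pathway counterpart, went from 13.3, 10.5 and 10.2 to 50.6, 30.9 and 46.1 (1.80 ± 0.40, limma adjusted p = 0.0122). For these genes no IL-1 library overlapped a control. The inhibitor Cd55 rose in the same libraries, from 496, 676 and 767 to 1741, 1521 and 1322 normalized counts (1.25 ± 0.20, limma adjusted p = 0.00436). C1ra was at 0, 15.2 and 9.33 in controls and at 21.7, 33.9 and 34.0 with IL-1, and did not pass (adjusted p = 0.0869), although with a pseudocount of 10 it did (log2 fold change 1.22, limma adjusted p = 0.0403). Thus 4 of 5 members tested were called higher and none lower, beside 23% of 13023 genes called in either direction. C2 lost its call without control replicate 2 or control replicate 4 (adjusted p = 0.0511 and 0.0517).

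With IL-17A for 72 h the same 4 members were called, beside 7.94% of 13073 genes. C3 was at 77.0, 196 and 213 normalized counts in the controls and at 1426, 1133 and 2352 with IL-17A (log2 fold change 3.39 ± 0.45, limma adjusted p = 0.0249). Cfb was at 749, 1104 and 1003 in the controls and at 2330, 1701 and 2150 with the cytokine (1.12 ± 0.21, limma adjusted p = 0.0356). C2 reached 33.6, 57.4 and 64.3 from 13.3, 10.4 and 10.2 (2.06 ± 0.42, limma adjusted p = 0.0414). Cd55 reached 1739, 1137 and 1764 from 495, 673 and 765 (1.26 ± 0.25, limma adjusted p = 0.0404). The groups overlapped in none of the 4, while C1ra (1.83 ± 1.12, adjusted p = 0.260) was at 16.8, 9.41 and 39.1 against 0, 15.2 and 9.31. All 4 calls were lost without control replicate 2, without control replicate 4, without IL-17A replicate 1 or 3, or with the nearly alike controls averaged, and C3 alone remained without control replicate 1. Their fold changes kept their direction in each case. The 1 male control gave a C3 difference of 4.32 from the 3 male IL-17A libraries, and no female IL-17A library exists for comparison.

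No member passed the test between the 2 cytokines at 72 h. C3 was 1.32 ± 0.40 higher with IL-1 on the log2 scale and every IL-1 library was above every IL-17A library, with an adjusted p of 0.9996 in limma and 0% of 12976 genes called by limma, edgeR or DESeq2. Without adjustment, 33 genes had p under 0.05 at this fold, C3 among them. Cfb, C2, Cd55 and C1ra differed by −0.25 to 0.63.

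From 12 to 72 h of IL-1, C2 rose by 1.68 ± 0.33 on the log2 scale (limma adjusted p = 0.00399). C3, Cfb and Cd55 were 0.98, 0.98 and 0.78 higher at 72 h, with limma adjusted p of 0.0383, 0.00399 and 0.0122 and a change below a doubling. Thus 1 of 5 members was called, beside 19.9% of 12916 genes, so the count of members is near that share. With IL-17A, C3 (2.001 ± 0.344, limma adjusted p = 0.00354) and C2 (1.85 ± 0.33, limma adjusted p = 0.00369) rose between the times, beside 14.2% of genes. With 6 groups as labelled, which was the design first written, C3 did not pass there (1.94, limma adjusted p = 0.0684), and Cfb passed with IL-1 (1.01, adjusted p = 0.0389). Since most controls are shared, this contrast set treated cultures of 72 h against those of 12 h and cannot tell apart longer cytokine exposure and longer culture.

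**Figure D2:**
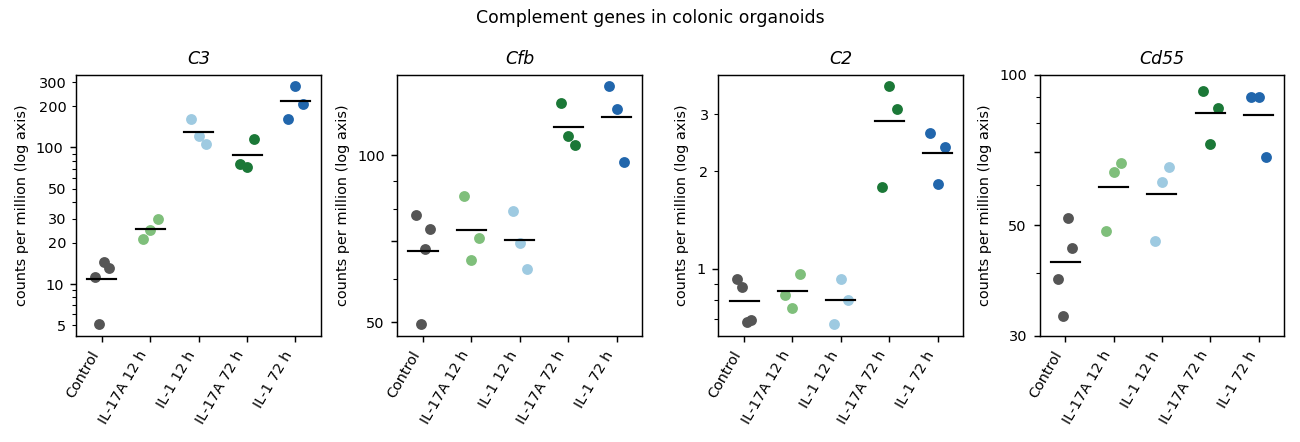
Level of 4 complement genes in each organoid library in CPM on a log axis, with the group mean as a line and the 4 distinct control libraries drawn once. C3 already stands above the controls at 12 h, most of all with IL-1, while every library of Cfb, C2 and Cd55 stands above the control range at 72 h.

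Other readouts of the same cultures moved alongside. Of 13 NF-κB response genes fixed as a list, 4 of 13 tested were called higher with IL-1 at 12 h (median log2 fold change 1.42), 1 of 12 with IL-17A at 12 h (0.86), 8 of 13 with IL-1 at 72 h (2.08) and 7 of 13 with IL-17A at 72 h (1.46). None was called lower, beside 0.0542%, 0.0385%, 23% and 7.94% of all genes called in either direction, in the same order. With any 1 library left out the counts were 0 to 1 with IL-1 and 1 with IL-17A at 12 h, and 7 to 8 with IL-1 and 0 to 7 with IL-17A at 72 h. With nearly alike libraries averaged they were 0, 1, 8 and 0, while the medians were 1.46, 0.76, 2.10 and 1.66. Of 13 interferon response genes, 0 of 10 and 0 of 9 were called by limma at 12 h (1 and 0 at an unadjusted p under 0.05 with at least a doubling). At 72 h, 3 of 11 (IL-1) and 4 of 11 (IL-17A) were called higher, beside 23% and 7.94% of all genes. The IL-1 count is near that share. The 72 h interferon counts were 0 to 5 and 0 to 4 with 1 library left out, and 0 and 0 with nearly alike libraries averaged. On a list of 47 further complement genes, 12 were tested in each organoid comparison and limma called none, while 0, 0, 2 and 2 had an unadjusted p under 0.05 and at least a doubling with IL-1 and IL-17A at 12 h and IL-1 and IL-17A at 72 h, beside 0.922%, 1.08%, 25.8% and 20.6% of all genes. Some markers of epithelial cells moved at 72 h too, beside 23% of all genes called with IL-1 and 7.94% with IL-17A. The 5 colonocyte markers summed to 1884 to 4006 CPM in controls, 4634 to 10997 with IL-1 (3 of 5 called higher) and 2583 to 9493 with IL-17A (0 called by limma, 2 without adjustment, and 3 called without IL-17A replicate 2). The 8 epithelial markers summed to 9324 to 10643, 13235 to 16377 (1 of 8 called) and 12589 to 13661 CPM, and the 7 goblet markers to 6959 to 7544, 2374 to 10430 and 2346 to 9550. Of the 7 neutrophil markers only Ly6g had a row, at 133 to 152 CPM in controls, 485 to 701 with IL-1 and 255 to 774 with IL-17A, and it was called higher with both. The IL-17A call was lost without any 1 library other than IL-17A replicate 2. The part of such marker differences in the complement results was not tested. Over all genes the median fold change was within 0.01 of 0 in each organoid comparison. Of the 10 macrophage markers, 6 or 7 had no row in the organoid tables, and Cd14 made up most of the summed level, which was 45.2 to 80.4 CPM in controls and 87.5 to 242 CPM with a cytokine.

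Across the 16 distinct organoid libraries, the genes with the pattern most like C3 among 9986 genes were Lrba (Pearson r = 0.92), Pglyrp1 (0.91), Tnfaip3 (0.90), Arrdc3 (0.87) and Rgs16 (0.85). Tnfaip3 encodes the NF-κB inhibitor A20, and Pglyrp1 a peptidoglycan-recognising antibacterial protein. For Cfb they were Rab3gap2 (0.96), Ptges (0.95), Ppp1r3b (0.93), Insig2 (0.93) and Prkab2 (0.93). C3 with Cd55 gave 0.75 (rank 47 for C3), Cfb with Cd55 0.77 (rank 550 for Cfb) and C3 with Cfb 0.65 (rank 383 for C3 and 1260 for Cfb). These values describe libraries that share treatments, time and cultures.

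The deletion experiments asked what loss of BMP signalling does to the stroma itself. In Gli1-tdTomato cells without Smad4, limma called the convertase protease Cfb higher in both segments and the inhibitor Cd55 lower in the distal colon. It did not call C3, C4b or the C1 genes, and the proximal Cfb call did not hold without either GS4T library. In the distal colon, Cfb stood at 1888 and 1228 normalized counts in GWTT and at 5178 and 5988 in GS4T, with no overlap. The log2 fold change was 1.87 ± 0.21 (SE, n = 2 per group, limma adjusted p = 0.00428). Cd55 stood at 8645 and 7373 in GWTT and at 2891 and 2596 in GS4T, a change of −1.54 ± 0.13 (limma adjusted p = 0.00185). These 2 were the members called out of 9 tested, beside 14% of 15262 genes, so the count of members is near that share. Leaving out any 1 library gave changes of 1.56 to 2.18 for Cfb and −1.66 to −1.43 for Cd55 that still passed, though a group of 1 library then borrows its spread from the other group. All 4 distal libraries are female.

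C1s1, the C1 protease, was the next closest in the distal colon, at 19273 and 18228 normalized counts in GWTT and 11028 and 12721 in GS4T. Its adjusted p was 0.0258, but its log2 fold change of −0.66 ± 0.14 was under the threshold of size. Serping1, whose product inhibits that protease, stood at 29849 and 27453 against 15775 and 20642 (−0.67 ± 0.19, adjusted p = 0.0531). The groups did not overlap in either gene. Cfi, the protease that inactivates C3b and C4b, was low throughout, at 7.82 and 1.94 in GWTT and 25.7 and 50.5 in GS4T (2.86 ± 0.80, limma adjusted p = 0.0512, DESeq2 adjusted p = 0.0188). C3 (−0.18), C2 (−0.11), C4b (−0.36) and C1ra (−0.29) had overlapping libraries or changes within 2 SE of 0.

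In the proximal colon without Smad4, Cfb was at 2661 and 2059 normalized counts in GWTT and at 4582 and 8468 in GS4T (log2 fold change 1.41 ± 0.31, limma adjusted p = 0.0433). It was the 1 member called of 8 tested, beside 9.61% of 15319 genes, so the count of members is near that share. Without GS4T replicate 2, the library with little Gli1, its change was 0.97 with an adjusted p of 0.104, and without GS4T replicate 1 or GWTT replicate 2 the adjusted p was 0.0630 and 0.0581. C3 was lower in both GS4T libraries, at 47155 and 72504 against 105836 and 121113 (−0.95 ± 0.34, limma adjusted p = 0.120). C4b was at 41448 and 59676 against 30555 and 23802 (0.88 ± 0.27, adjusted p = 0.0873), and Serping1 at 21365 and 28099 against 40858 and 39850 (−0.72 ± 0.21, adjusted p = 0.0794). Each of these had groups that did not overlap, and none passed the test. With 2 libraries per group, unchanged genes also often separate, so a lack of overlap alone shows no change. That holds for all sorted groups here. Without GS4T replicate 2 their changes were −1.26 for C3, 0.62 for C4b and −0.92 for Serping1, and none passed (adjusted p = 0.134, 0.261 and 0.113). Cd55 was at 4971 and 5857 in GWTT and split in GS4T, at 2090 and 5599 (−0.66 ± 0.46, adjusted p = 0.366). Its change was −1.37 without GS4T replicate 2, which passed the test (limma adjusted p = 0.0492), and 0.05 without GS4T replicate 1. The GS4T effect was not shown to differ between the segments for any member (smallest limma adjusted p = 0.450, for C4b), beside 0.0461% of 15186 genes. Without adjustment 1 member, C4b (1.22 ± 0.45), had a p under 0.05 at this fold, beside 4.85% of all genes.

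Loss of Bmpr1a gave Cfb and Cd55 fold changes of the same signs that were not called. Cfb was at 2800 and 2164 in proximal GWTT and at 4008 and 4464 in GA3T (0.78 ± 0.16, limma adjusted p = 0.105), and at 2154 and 1398 against 1873 and 5204 in the distal colon (0.85 ± 0.50, adjusted p = 0.417). Cd55 was at 9863 and 8390 in distal GWTT and at 4708 and 3882 in GA3T (−1.09 ± 0.16, limma adjusted p = 0.0947), and at 5230 and 6158 against 4678 and 3662 in the proximal colon (−0.46 ± 0.17, adjusted p = 0.223). The Cd55 groups were apart in both segments and the Cfb groups in the proximal segment only. No member of 8 was called in the proximal colon, beside 0.358% of 15346 genes, and none of 9 in the distal colon, beside 0% of 15414 genes. Unadjusted p under 0.05 together with a fold of that size was met by 0 members in the proximal and 1, Cd55, in the distal colon, beside 9.46% and 7.77% of all genes, and DESeq2 called Cd55 there (adjusted p = 1.96e-06) while edgeR called none. By sex-linked genes distal GA3T replicate 1 is male, while GA3T replicate 2 and both distal controls are female. Without that male library, which leaves a single GA3T library with its spread taken from the controls, both genes passed in limma, Cfb at 1.58 (adjusted p = 0.0417) and Cd55 at −1.23 (adjusted p = 0.0195), beside 4.87% of genes. Without distal GA3T replicate 2 neither passed, Cfb at 0.11 (adjusted p = 0.881) and Cd55 at −0.95 (adjusted p = 0.0976), so the size of the distal Cfb change rests on that library. Without proximal GA3T replicate 2, the other library with little Gli1, the proximal changes were 0.70 for Cfb and −0.28 for Cd55. The GA3T and GS4T tables share their 4 control libraries, so they are not independent.

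**Figure D3:**
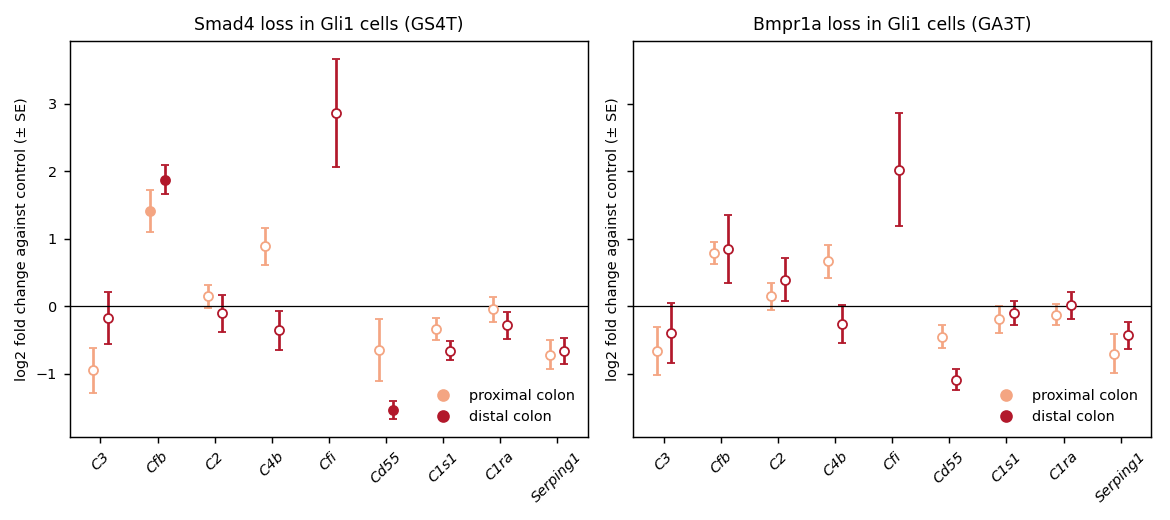
Log2 fold change of each complement gene in Gli1-tdTomato cells after loss of Smad4 (left) or Bmpr1a (right) against GWTT, with SE bars and n = 2 per group. Filled points passed the test, as Cfb (1.41 and 1.87) and Cd55 (−1.54) did after loss of Smad4 and no gene did after loss of Bmpr1a.

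Further complement genes changed in the Smad4-deficient stroma. From the list of 47, 13 of 32 tested were called higher and 0 lower in the proximal colon, and 9 of 31 higher and 1 lower in the distal colon, beside 9.61% and 14% of all genes. Without GS4T proximal replicate 2, the library with little Gli1, 3 of 31 were called in the proximal colon (C1qa, C1qb and Colec10), beside 2.35% of genes. Without GS4T proximal replicate 1 limma called none of 32, beside 0.775% of genes, and in the distal colon 4 to 11 were called without any 1 library. Those called higher in both were the terminal component C6, the collectin Colec10, the C1q chains C1qb and C1qc, the anaphylatoxin receptors C3ar1 and C5ar1, and Itgam, a chain of complement receptor 3. Colec10 averaged 51.4 ± 12.8 normalized counts (SD, n = 2) in proximal GWTT and 1083 ± 119 in GS4T, a log2 fold change of 4.39 ± 0.24 (limma adjusted p = 0.00368). C6 averaged 9.72 ± 2.68 in distal GWTT and 304 ± 206 in GS4T (4.67 ± 0.58, limma adjusted p = 0.00531).

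Those called higher in the proximal colon alone were Clu (2.99), C1qa (2.19), Itgax (1.80), Itgb2 (1.03), Cfd (4.15) and Fcna (2.59), and in the distal colon alone Vsig4 (4.22) and Cd59a (1.11), given as log2 fold changes. In GWTT, Cfd, Fcna and Vsig4 averaged 7.70, 4.12 and 2.90 normalized counts, and distal C6 9.72. Those are below the mean of 10 needed for a test, so these genes entered it, and the counts of calls, through GS4T. The sizes of their fold changes depend on the pseudocount. Cr2, the B cell receptor for C3 fragments, was lower in the distal colon, from 34.1 ± 1.62 to 5.74 ± 1.85 normalized counts (SD, n = 2). After loss of Bmpr1a limma called none of the 31 (proximal) or 33 (distal) genes tested, while 12 and 5 had an unadjusted p under 0.05 with at least a doubling or halving, beside 9.46% and 7.77% of all genes. Colec10 was among them in both segments, at 3.61 and 3.46, as was C6 at 2.37 and 3.46, so the calls do not show that the 2 deletions differ, and that difference was not tested. C1q chains, Itgam, Itgax, C3ar1 and C5ar1 are known as genes of myeloid cells. Between the segments, limma called no difference in the GS4T effect for the 15 of these 16 genes tested (0 also at an unadjusted p under 0.05 with at least a doubling or halving, smallest adjusted p = 0.607, for Fcna), and Vsig4 was not tested. A gene called in 1 segment was therefore not shown to differ between them.

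**Figure D4:**
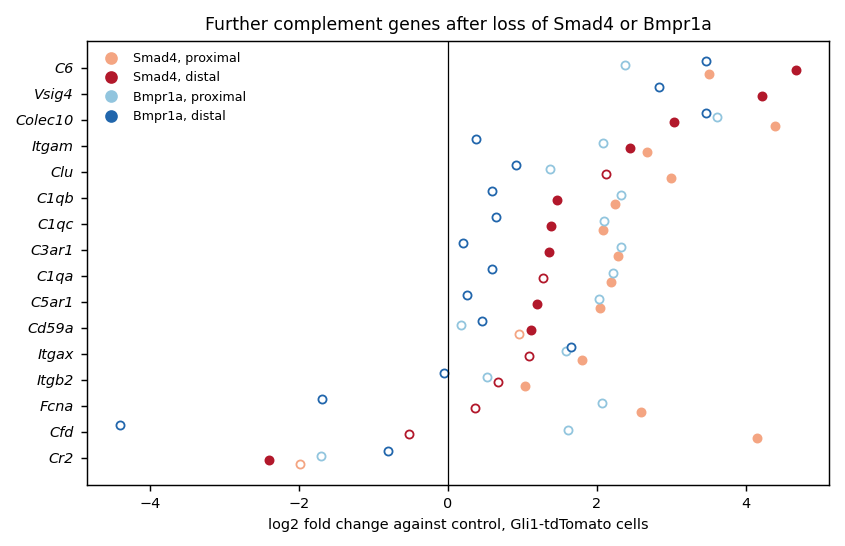
Log2 fold change in Gli1-tdTomato cells of the 16 further complement genes that were called after loss of Smad4 in either segment, with filled points for calls. C6, Colec10, the C1q chains and Itgam lie to the right of 0 in both segments after loss of Smad4 (C1qa is called in the proximal colon only), and no point of the Bmpr1a comparisons is filled.

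Markers of other cells moved with the same comparison. The 10 macrophage markers, of which Lyz2 was the most abundant in every library, summed to 638 and 524 CPM in distal GWTT and to 1702 and 1002 in GS4T, with 4 of 10 called higher (2 to 6 without any 1 library). Proximal sums were 151 and 254 in GWTT against 1304 and 803 in GS4T, with 6 of 10 called, a count that was 0 without GS4T replicate 1, 2 without GS4T replicate 2 or GWTT replicate 1, and 8 without GWTT replicate 2. The 7 neutrophil markers summed to 9.96 and 4.11 CPM in distal GWTT and to 188 and 242 in GS4T, with 7 of 7 called. In the proximal colon the neutrophil markers summed to 2.75 and 6.86 CPM in GWTT and to 76.9 and 88.7 in GS4T, with 5 of 6 tested called (0 of 6 without GS4T replicate 1, 1 of 6 without GS4T replicate 2, and 5 or 6 of 6 without a control). Proximal epithelial markers stood at 16.0 and 569 CPM in GWTT and at 1399 and 1757 in GS4T, with 1 of 8 called. Leaving out 1 proximal library gave 0 of 8 epithelial markers without either GS4T library and 8 of 8 without either control. All 8 epithelial markers were called higher in distal GS4T, from 63.0 and 199 CPM to 762 and 1533 (5 of 8 without GS4T replicate 1 and 4 of 8 without GS4T replicate 2), and the B and plasma cell markers, nearly all Jchain, went from 3488 and 4819 to 111 and 447, with 3 of 5 called lower. After loss of Bmpr1a limma called none of these markers, but 8 of 8 epithelial markers in the distal and 8 of 10 macrophage markers in the proximal colon had an unadjusted p under 0.05 with at least a doubling, beside 7.77% of all genes in the distal and 9.46% in the proximal colon by that rule, and the epithelial sums were 1133 and 474 CPM in distal GA3T. Goblet markers summed to 4.71 to 379 CPM in proximal GWTT and 430 to 941 in GS4T. In the distal colon they overlapped, at 138 to 283 and 262 to 802 CPM. Colonocyte sums overlapped in both segments, at 16.7 to 443 and 154 to 188 CPM (proximal) and 31.3 to 61.1 and 46.5 to 96.4 (distal). Cfb was at 281 to 495 CPM in the GS4T libraries and at 86.2 to 127 CPM across all sorted goblet libraries. The part of the other cells in the Cfb and Cd55 results was not tested.

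For the 2 lists below, limma called 9.61% (proximal) and 14% (distal) of all genes after loss of Smad4, and 0.358% and 0% after loss of Bmpr1a. The distal interferon count after loss of Smad4 is near that share. NF-κB genes of the fixed list were called higher in 3 of 12 tested in the proximal and 4 of 12 in the distal Smad4 comparison, with none lower. In the Bmpr1a comparisons they were 1 of 12 (proximal) and 0 of 12 (distal, 2 without adjustment, beside 7.77% of all genes). Summed NF-κB levels were 1475 to 1712 CPM in proximal GWTT and 1479 to 1536 in GS4T. In the distal colon they were 1156 to 1389 and 2352 to 2374 CPM. With 1 library left out the NF-κB counts were 0 to 3 and 4 for Smad4 and 0 to 2 and 0 to 2 for Bmpr1a, proximal and distal. Interferon genes were called lower in 4 of 13 (proximal, 0 without either GS4T library) and 2 of 13 (distal, 1 to 5 without any 1 library) after loss of Smad4, and limma called none after loss of Bmpr1a (0 and 1 without adjustment).

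Within the 12 stromal libraries, the genes most like C1s1 among 11405 were Sema3b (r = 0.96), Pltp (0.95), Gask1a (0.94), Nat8f3 (0.94) and Ccdc149 (0.94). Its inhibitor gene Serping1 gave 0.83 (rank 285 among those genes), C1ra 0.75 (rank 781) and Cd55 0.72 (rank 1010). C3 gave 0.53, C2 0.42, C4b 0.15 and Cfb −0.585, so many other genes were more like C1s1 than any member was. For C4b the most alike were Clmp (0.85), Fut8 (0.84), Shroom2 (0.72), Tpgs1 (0.69) and Osbpl10 (0.68), and the members themselves gave at most 0.55 (C1ra). These correlations mix genotypes and segments and are given as descriptions.

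The goblet cells show what the epithelium does when only the stroma has lost the gene. No member was called in any of the 4 comparisons. For GS4M2 the background was 0.325% of 13246 genes (proximal) and 0% of 13078 (distal), and for GA3M2 it was 0.0899% of 13346 and 0% of 13082. The size threshold together with an unadjusted p under 0.05 was met by 1 of 4, 0 of 6, 1 of 6 and 1 of 6 members in that order, beside 4.28%, 2.7%, 6.83% and 4.12% of all genes. DESeq2 called 1 member, Cd55 in distal GA3M2 (adjusted p = 0.00355), and edgeR called none.

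Cd55 was higher in every GA3M2 library than in its controls. In the distal colon it was at 259 and 320 normalized counts in GWTM2 and at 579 and 1000 in GA3M2 (log2 fold change 1.40 ± 0.30, limma adjusted p = 0.306). In the proximal colon it was at 413 and 487 against 674 and 1130 (0.96 ± 0.28, adjusted p = 0.244). The GA3M2 libraries also differed in marker sums, although only 1 to 3 of the 7 neutrophil markers had a row in a goblet library. Limma called 1 of 7 goblet markers lower in the proximal colon, 0 in the distal colon, and no neutrophil marker. Without adjustment, 3 goblet markers passed in each segment, with 1 (proximal) and 2 (distal) neutrophil markers. In distal GA3M2, goblet markers summed to 12236 and 20978 CPM, against 33718 and 61172 in GWTM2, and neutrophil markers to 73.0 and 125 CPM against 7.94 and 9.01. In the proximal colon goblet markers summed to 8878 and 12335 CPM against 29578 and 32645, and neutrophil markers to 19.8 and 82.1 against 0.378 and 1.06. Their part in the Cd55 values was not tested. With loss of stromal Smad4 Cd55 was at 388 and 461 against 610 and 640 in the proximal colon (0.56 ± 0.14, adjusted p = 0.147), and the distal libraries overlapped at 271 and 332 against 300 and 523 (0.40 ± 0.31, adjusted p = 0.648).

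C3 in goblet cells was low and uneven. The distal controls alone differed by several fold, at 204 and 32.8 normalized counts, against 251 and 403 in GS4M2 (1.94 ± 0.86, limma adjusted p = 0.494). Without distal GWTM2 replicate 1, which also had the highest C2 of the controls (97.3 against 11.3), the C3 change was 3.24 (adjusted p = 0.0223), a value that rests on a single control library with its spread taken from the treated group, and without GWTM2 replicate 2 it was 0.64 (adjusted p = 0.408). Proximal C3 was at 53.2 and 28.1 against 79.9 and 120 in GS4M2 (1.32 ± 0.40, limma adjusted p = 0.196). Marker sums differed in these proximal libraries too. Limma called none of the colonocyte, neutrophil or goblet markers there, while 3, 1 and 2 of them passed without adjustment. Colonocyte markers summed to 2257 to 5263 CPM in GWTM2 and 576 to 1205 in GS4M2. Neutrophil markers summed to 0.378 to 1.06 CPM in GWTM2 and 5.94 to 13.4 in GS4M2, and goblet markers to 29577.6 to 32645 and 35224.5 to 39122.5. Their part in the C3 value was not tested. Proximal Cfb averaged 1995 ± 148 normalized counts in GWTM2 and 1581 ± 25.5 in GS4M2 (SD, n = 2). The groups did not overlap, and the log2 fold change of −0.33 ± 0.10 did not pass (limma adjusted p = 0.198). In the distal GS4M2 table Cfb stayed within 1560 to 2043, with a change of 0.14. Serping1 in proximal GA3M2, at 17.1 and 19.4 against 0.914 and 3.42, and the other low members did not pass either. Its fibroblast markers summed to 8.0 and 29.8 CPM there, against 2.1 and 2.7 in the controls, and their part in that value was not tested.

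The direct test of whether a deletion acts differently on the 2 cell types set the stromal change against the goblet change within a segment. For Smad4, the Cfb change was higher in the stroma in both segments (difference of log2 fold changes 1.76 ± 0.38, limma adjusted p = 0.0433 proximal, and 1.75 ± 0.30, adjusted p = 0.0221 distal). The Cd55 change was lower in the stroma in the distal colon (−1.92 ± 0.36, limma adjusted p = 0.0283), as was the C3 change in the proximal colon (−2.25 ± 0.50, adjusted p = 0.0448). For Bmpr1a, the distal Cd55 difference was −2.47 ± 0.37 (limma adjusted p = 0.0409), with both stromal libraries below and both goblet libraries above their controls. The part of the GA3M2 goblet and neutrophil marker differences in that value was not tested. Nor was that of the proximal GS4M2 colonocyte, neutrophil and goblet marker differences in the proximal Smad4 values. The members called were 2 of 4 proximal and 2 of 6 distal for Smad4, beside 5.27% of 12877 and 5.68% of 12735 genes. For Bmpr1a they were 0 of 7 and 1 of 6, beside 0.859% of 13266 and 0.694% of 12961 genes. Leaving out 1 of the 8 libraries at a time ended the call for 6 of 8 for C3, 5 of 8 (proximal) and 3 of 8 (distal) for Cfb, and 4 of 8 (Smad4) and 7 of 8 (Bmpr1a) for Cd55. The differences kept their sign, with a range of −2.70 to −1.81 for C3, 1.32 to 2.20 (proximal) and 1.44 to 2.06 (distal) for Cfb, and −2.33 to −1.51 (Smad4) and −2.87 to −2.07 (Bmpr1a) for Cd55.

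**Figure D5:**
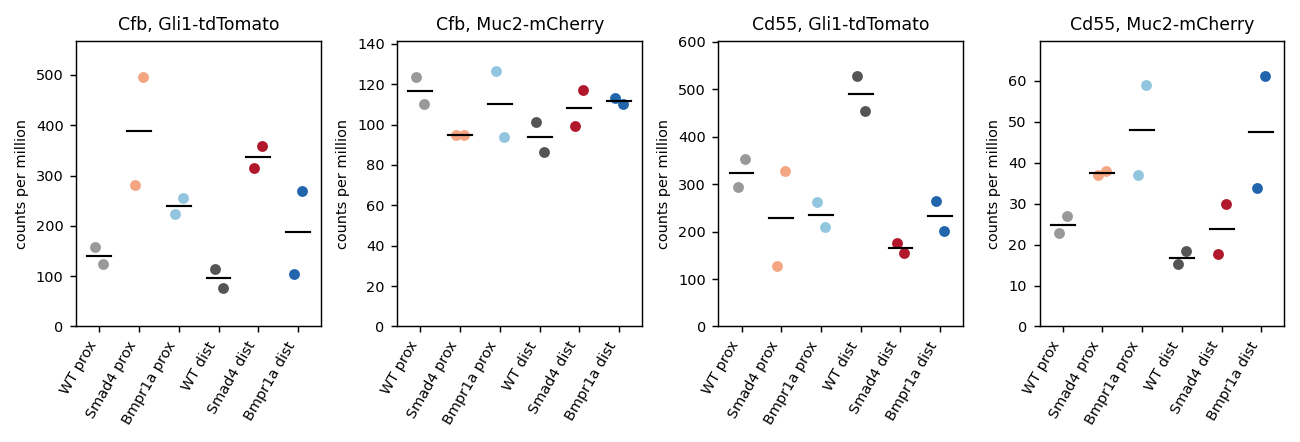
Cfb and Cd55 in CPM in each sorted library, with group means as lines, for stromal and goblet cells of the proximal and distal colon by stromal genotype. Cfb lies above its controls (WT, meaning GWTT or GWTM2) in stroma without Smad4 and between 86.2 and 127 CPM in all goblet libraries, while Cd55 lies below its controls in the distal stroma of both deletions.

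Some members share sequence or position with other genes. Cfb (chr17:34856374-34862518) and C2 (chr17:34862604-34898265) are neighbours on the minus strand, and the gene model Gm20547 overlaps part of each. C4b has the near copy C4a, C1s1 has C1s2, C1ra has C1rb and Cd55 has Cd55b. Those copies were low in the libraries that list them, with C4a at 2.33 CPM, C1s2 at 1.34 and C1rb at 0.395 in GWTT and Cd55b at 0.485 in organoid controls. The methods state unique mapping but not how overlapping genes or strand were counted, so the levels of these members are uncertain to that extent.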

How the data were processed

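RNA-seq was performed on 42 libraries with an mRNA kit. The methods name STAR 2.5.3 for unique alignment to mm10, DESeq2 1.28.1 for scaling the counts, and FastQC for read quality. The counting program, annotation and strand are not given in the sources used here. The deposited signal values are gene counts divided by 1 size factor per library within each of 12 tables, and the tables held no comparison columns. Dividing by the smallest step gave whole reads for 100% of values (within 0.1). Rows without a gene name held up to 28.2% of a library's reads and were left out. Of the 14 control libraries used in 2 tables, 7 held the same recovered reads in both and 7 differed in 1 or 2 genes, none of them a member.

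Comparisons within a table used limma 3.58.1 (R 4.3.3, trend) on log2(value + 1) for genes with a mean of at least 10, with Benjamini-Hochberg adjustment over all genes. A gene was called when it passed both limits, an adjusted p below 0.05 and a log2 change of 1 or more in size. Fold changes on this scale understate those of low genes. Comparisons across tables used the recovered reads with median-of-ratios scaling and the same test. Because the 12 h and 72 h controls share libraries, the time comparison was fitted over 16 distinct libraries with controls as 1 group, which departs from the design first written. CPM are recovered reads scaled to a common total over named genes, and CPM per kb are CPM divided by GENCODE M21 exon length. Alternatives were no adjustment, pseudocounts of 0.1 and 10, no filter, a mean of at least 50, upper-quartile scaling, edgeR 4.0.16 and DESeq2 1.42.0 on recovered reads, a replicate block and leaving out each library (a group left with 1 library is assumed to vary like the other). Averaging nearly alike libraries, the gene lists without each stromal library, the labelled interaction and within-sex values were added after seeing the data. The 2 cytokine groups of a time share 3 replicate numbers, and deviations of same-numbered libraries correlated at 0.59 to 0.86 at 12 h and 0.44 to 0.75 at 72 h, so these were taken as pairs from the data; the labels do not state a pairing. The code was tested on simulated data.

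The 9 members were all named. From 47 further complement genes (1 more on the list is not reported here) those called in a table were named, and for C3, Cfb, C1s1 and C4b the 5 genes of highest correlation of log2(CPM + 1) over distinct libraries among genes with a mean of at least 5 CPM, leaving out Gm and Rik models. The members and the lists of complement, NF-κB, interferon and cell type marker genes were chosen with earlier results of these data known. Marker sums of endothelium (0 of 5 distal and 1 of 5 proximal called higher in GS4T), smooth muscle (1 higher and 1 lower of 5 distal, 2 of 5 higher proximal) and T cells (1 of 4 tested lower distal) were also computed.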

Additional observations from a re-analysis of the deposited data

Results flagged for a closer look

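Results in which the stromal and the goblet change under the same deletion differed by a test of the difference itself were taken for a closer look. Loss of Smad4 in the proximal colon gave a difference of log2 fold changes of −2.25 ± 0.50 for C3 (SE, limma adjusted p = 0.0448), since C3 was lower than its controls in both stromal libraries and higher in both goblet libraries. The difference for Cfb was 1.76 ± 0.38 in the proximal colon (limma adjusted p = 0.0433) and 1.75 ± 0.30 in the distal colon (limma adjusted p = 0.0221). Cd55 differed by −1.92 ± 0.36 in the distal colon after loss of Smad4 (limma adjusted p = 0.0283) and by −2.47 ± 0.37 after loss of Bmpr1a (limma adjusted p = 0.0409). Each of these calls was lost in some fits with 1 library left out, as given above. Taken alone, the proximal C3 change was not called in stroma or goblet cells (limma adjusted p = 0.120 and 0.196). Nor was the distal Cd55 change after loss of Bmpr1a (limma adjusted p = 0.0947 and 0.306). In the goblet libraries, replicate 1 of the controls was female in both segments and all others were male. Groups of 2 or 3 libraries are too small for a test of single outlying samples.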

How the results depend on the processing

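Over all alternatives, 1251 recomputed values of single members kept their direction and their side of the threshold, 68 no longer passed, 29 newly passed and 43 changed sign; the cause was not tested. C3 at 12 h of IL-1 was the least secure call: 0 members were called with a mean of at least 50, by edgeR, with nearly alike libraries averaged, and without any 1 library (0 to 0). With IL-17A at 72 h, 0 of the 4 calls were left when nearly alike libraries were averaged. Without adjustment 1 member was called with IL-17A at 12 h, in proximal GS4M2, in both GA3M2 segments and in distal GA3T. The same held between cytokines at either time and for the GS4T effect between segments. DESeq2 called 1 with IL-17A at 12 h, between cytokines at 12 h, and in distal GA3M2 and GA3T. The interaction as labelled called 2 members for IL-1 and 1 for IL-17A between the times. The stroma against goblet contrast for proximal GA3 gave 2 members without adjustment and 2 by DESeq2. The values that changed sign outside leave-one-out were C2 in distal GA3M2 (−0.31 by edgeR and by DESeq2) and Cd55 between cytokines at 72 h (−0.0123 by edgeR, −0.0171 by DESeq2).

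Leaving out 1 library gave 0 to 4 members called with IL-17A at 72 h, 0 to 1 in distal GS4M2, proximal GA3M2, proximal GS4T and between cytokines at 12 h, and 0 to 2 in distal GA3M2 and distal GA3T. The stroma against goblet contrasts gave 0 to 2 (GS4 proximal), 0 to 3 (GS4 distal), 0 to 2 (GA3 proximal) and 0 to 1 (GA3 distal). Log2 fold changes that changed sign ranged, at 12 h of IL-1, from −0.0043 to 0.33 for Cfb and −0.15 to 0.10 for C2, and, at 12 h of IL-17A, from −0.0593 to 0.17 for C2. In GS4M2 they ranged from −0.15 to 1.02 for proximal C2, and in the distal colon from −0.0035 to 0.29 for Cfb, −1.61 to 1.39 for C2, −0.0002 to 0.80 for Cd55 and −0.57 to 0.82 for C4b. In GA3M2 they ranged from −0.0275 to 1.23 for C3 and −0.23 to 0.13 for Cfb in the proximal colon, and from −1.13 to 1.85 for C2, −0.32 to 0.61 for C1ra and −0.53 to 1.07 for C4b in the distal colon. In GS4T they ranged from −1.37 to 0.0532 for Cd55 and −0.27 to 0.18 for C1ra in the proximal colon, and from −0.61 to 0.26 for C3, −0.47 to 0.25 for C2 and −0.75 to 0.0381 for C4b in the distal colon. In GA3T they ranged from −0.0377 to 0.33 for C2 and −0.27 to 0.0046 for C1ra in the proximal colon, and from −0.81 to 0.0132 for C3 and −0.21 to 0.23 for C1ra in the distal colon. Between cytokines they ranged from −0.16 to 0.0556 for Cfb, −0.19 to 0.0133 for C2 and −0.19 to 0.0832 for Cd55 at 12 h, and from −0.061 to 0.17 for Cfb and −0.20 to 0.12 for Cd55 at 72 h.

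The replicate block called 1 member with IL-17A at 12 h (C3, 1.04, adjusted p = 4.81e-14), 1 between cytokines at 12 h, 0 with IL-17A at 72 h and 3 with IL-1 at 72 h (C2 lost, adjusted p = 0.140), and changed no other call of a member. Treated and control groups share only 2 numbers, and deviations of same-numbered libraries correlated at 0.62 to 0.64 at 12 h, 0.18 and 0.20 with IL-1 at 72 h, −0.10 and −0.19 with IL-17A at 72 h and −0.06 to 0.30 in sorted cells, so these numbers were not taken as pairs, although the 12 h correlations were high.

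The number of all genes called depended on the setting, given as the range over other settings and then over single libraries left out: 7 with IL-1 at 12 h (0 to 102, 0 to 5), 5 with IL-17A at 12 h (2 to 117, 2 to 4), 2998 with IL-1 at 72 h (1518 to 3193, 2078 to 3396), 1038 with IL-17A at 72 h (2 to 2309, 3 to 3577), 43 in proximal GS4M2 (31 to 270, 18 to 153), 0 in distal GS4M2 (0 to 148, 0 to 232), 12 in proximal GA3M2 (7 to 699, 1 to 1036), 0 in distal GA3M2 (0 to 240, 0 to 638), 1472 in proximal GS4T (1228 to 2006, 119 to 2154), 2130 in distal GS4T (1728 to 2404, 1194 to 1915), 55 in proximal GA3T (0 to 966, 0 to 234) and 0 in distal GA3T (0 to 776, 0 to 749). The stroma against goblet contrasts called 679 (620 to 1225, 71 to 1531) and 723 (673 to 1350, 122 to 858) genes for GS4 and 114 (96 to 806, 0 to 878) and 90 (89 to 813, 1 to 197) for GA3, proximal and distal. The interaction as labelled called 1312 genes in place of 2572 for IL-1 and 156 in place of 1831 for IL-17A between the times. Low counts limit which members have a row at all, C1s1 in 4 tables and Cfi in 2.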

Other observations

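In goblet cells, Clu, the complement inhibitor clusterin, was the 1 further complement gene called, in proximal GS4M2, where it went from a mean of 68.4 normalized counts in GWTM2 to 667 (log2 fold change 3.37, limma adjusted p = 0.0358, n = 2). Clu was 2.09 higher in proximal and 3.66 higher in distal GA3M2 without passing the adjusted test. In distal GS4M2 it did not move (−0.02 ± 0.39, limma adjusted p = 0.986). Colonocyte markers summed to 2257 to 5263 CPM in proximal GWTM2 and 576 to 1205 in GS4M2, and neutrophil markers to 0.378 to 1.06 and 5.94 to 13.4. Their part in the Clu value was not tested. In that same 47-gene list 14, 14, 16 and 14 genes were tested in proximal and distal GS4M2 and proximal and distal GA3M2, and 2, 2, 4 and 5 had an unadjusted p under 0.05 with at least a doubling or halving, beside 4.28%, 2.7%, 6.83% and 4.12% of all genes.

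The 13 interferon response genes were all lower in GS4M2 than in GWTM2 in both segments, with medians of −0.94 (proximal) and −1.04 (distal) and none called by limma, although 1 in each segment had an unadjusted p under 0.05 with at least a halving. The 2 distal controls differed, with summed levels of 1041 and 426 CPM against 303 and 416 in GS4M2. Without the higher control the distal median was −1.01 with 3 of 13 genes higher, and over all single libraries left out the medians were −1.76 to −0.25 (proximal) and −1.77 to −0.55 (distal). In GA3M2 limma called none of them either, with 1 (proximal) and 3 (distal) by the unadjusted rule, and 0 to 2 and 0 to 9 called with 1 library left out (9 lower without distal GWTM2 replicate 2). No NF-κB gene was called in goblet cells, with 0 and 0 by the unadjusted rule in GS4M2 and 3 and 1 in GA3M2. Between stroma and goblet cells of control mice, 12 of 17 further complement genes tested were higher and 2 lower in stroma, with a median log2 difference of 1.95, beside 44.2% of all genes called in either direction.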
